A study of Homo sapiens with 11 samples.

Results

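H3K27ac, histone H3 acetylated at lysine 27, was compared between Ishikawa cells given 10 nM estradiol for 8 h and Ishikawa cells given the vehicle DMSO for 8 h. Every peak of both deposited lists was a member: 23888 estradiol peaks and 21120 vehicle peaks, together 45008 of the 90458 peaks in the 8 lists of the series. An estradiol peak that overlapped no vehicle peak by at least 1 bp is called gained, a vehicle peak that overlapped no estradiol peak is called lost, and the others are called kept. These words describe calls in lists, not measured levels. Ishikawa is a human endometrial cancer cell line, and both groups were grown in phenol red-free medium with charcoal-treated serum, which carries little hormone. Sites of the estrogen receptor (ER) came from cells given 10 nM estradiol for 1 h. For comparison, sites of the glucocorticoid receptor (GR) came from cells given 100 nM dexamethasone for 1 h, and further H3K27ac lists came from 8 h of 100 nM dexamethasone and of both hormones together, called the combination here. The series lists 11 samples, and each group used here is 1 library of 1 cell line.

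ER is a transcription factor that binds estradiol and then DNA, and it recruits coactivators that include the histone acetyltransferases p300 and CBP. These enzymes acetylate lysine 27 of histone H3, a mark found at active promoters and enhancers. Many ER sites lie away from promoters, and acetylation around such sites is commonly read as a mark of enhancer activity.

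The estradiol library held 10852521 usable tags with 19% duplicates, and the vehicle library held 18508574 with 18%, scaled by the authors' peak caller to the 14002417 tags of the control. The deeper vehicle library had the shorter list and the narrower peaks, with a median width of 547 bp against 650 bp, and its peaks covered 17955.5 kb against 24171.2 kb. Fragment lengths, 273 bp for estradiol and 244 bp for vehicle, equalled the narrowest peak of each list, so the same signal can give a wider peak with estradiol. The part of depth and fragment length in the results below was not tested. With 1 library a side there was no replicate, so no difference between the treatments was tested, and the 95% intervals cover counting error over peaks only. Genes are not named and the cell type was not checked against marker genes, because no hg19 annotation was used here. Regions are given as hg19 coordinates.

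More peaks were gained than lost, and both classes were weaker and narrower than kept peaks. With estradiol 6418 of 23888 peaks were gained (26.9%, 95% interval 26.3 to 27.4), and 17470 were kept. In the vehicle list 1463 of 21120 peaks were lost (6.93%, 6.59 to 7.28), and 19657 were kept. Gained peaks had a median width of 384.5 bp and a median fold enrichment over the control of 8.12, where kept estradiol peaks had 808 bp and 12.9. Lost peaks had 318 bp and 7.39, where kept vehicle peaks had 578 bp and 9.88. By covered length the changed peaks were a smaller part, with 13.2% of the estradiol list gained and 3.0% of the vehicle list lost. Merging both lists gave 24755 regions, of which 16874 held peaks of both treatments. With the longer list cut to the length of the shorter by −log10 q, 4455 peaks were gained and 2128 lost. At equal length such a surplus arises only where single estradiol peaks meet several vehicle peaks more often than the reverse. That setting therefore cannot show whether more regions were gained than lost.

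Strength, the authors' −log10 q within each list, set the classes apart. In the strongest 25% of estradiol peaks 1.67% (1.36 to 2.03) were gained, followed by 7.59%, 34.0% and 64.2% in each weaker 25%. In the strongest 25% of vehicle peaks 0 of 5280 were lost, an upper limit of 0.0698%, followed by 0.928%, 6.70% and 20.1%. At a −log10 p of 40 or more there were 437 gained peaks and 9 lost peaks. Strong vehicle peaks were thus rarely missing from the estradiol list, while some strong estradiol peaks had no vehicle counterpart.

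Gained peaks lay both beside vehicle peaks and far from any. Of the 6418, 2125 (33.1%) lay within 1 kb of a vehicle peak, 1320 (20.6%) between 1 and 10 kb, and 2973 (46.3%) farther away, with a median distance of 7003.5 bp. Lost peaks lay closer to the other list: 718 of 1463 (49.1%) were within 1 kb of an estradiol peak, and the median distance was 1086 bp. Few calls hung on the edge of the overlap rule. Only 30 kept estradiol peaks overlapped by 50 bp or less, and 43 gained peaks and 35 lost peaks lay within 50 bp of the other list.

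ER sites were found near gained peaks more often than near kept peaks and least often near lost ones. Over whole lists an ER site lay within 1 kb of 10.3% of estradiol peaks and 8.8% of vehicle peaks. Among gained peaks it was 964 of 6418 (15%, 14.2 to 15.9), and among kept estradiol peaks 1506 of 17470 (8.62%, 8.21 to 9.05). Among lost peaks it was 47 of 1463 (3.21%, 2.37 to 4.25), against 1811 of 19657 kept vehicle peaks (9.21%, 8.81 to 9.63). The gained share was 4.68 times the lost share (3.51 to 6.23) and 1.74 times the kept share (1.62 to 1.88). Most gained peaks, 5454 of 6418, had no ER site within 1 kb.

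GR sites of dexamethasone-treated cells, a receptor whose hormone was absent from both groups, had another order. A GR site lay within 1 kb of 2.32% (1.97 to 2.72) of gained peaks, 4.69% (4.38 to 5.02) of kept estradiol peaks, 4.51% (4.22 to 4.81) of kept vehicle peaks and 3.96% (3.02 to 5.10) of lost peaks. At like width the gained and kept shares were close below 2000 bp and differed at 2000 bp or more. In that widest class a GR site lay near 1.33% (0.0338 to 7.21) of gained and 16.1% (14.6 to 17.7) of kept estradiol peaks. Among peaks of 300 to under 500 bp a GR site lay near 2.06% (1.60 to 2.61) of gained and 2.27% (1.80 to 2.82) of kept estradiol peaks, and among peaks of 500 to under 1000 bp near 3.11% (2.30 to 4.12) and 2.52% (2.16 to 2.92), with intervals that overlapped in both classes.

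The ER share depended on how the site had to meet the peak. Counting peaks with the summit of an ER site inside them, kept estradiol peaks led with 5.87% (5.52 to 6.23), against 3.33% (2.91 to 3.80) of gained peaks and 0.273% (0.0745 to 0.699) of lost peaks. Kept peaks were wider, and a wide peak takes in more sites, so the classes were also compared at like widths. Among peaks of 500 to under 1000 bp an ER site lay within 1 kb of 22.4% (20.3 to 24.6) of gained, 3.93% (3.49 to 4.42) of kept estradiol and 4.23% (1.84 to 8.17) of lost peaks. Among peaks of 1000 to under 2000 bp the share was 50.2% (44.3 to 56.1) for gained and 8.29% (7.51 to 9.14) for kept estradiol peaks. Of the 75 gained peaks of 2000 bp or more, 60 had an ER site (80%, 69.2 to 88.4), against 33.9% (31.9 to 35.8) of kept ones. Under 300 bp gained peaks again led, with 7.47% (6.09 to 9.04) against 2.48% (1.19 to 4.50) of kept estradiol and 3.18% (1.93 to 4.93) of lost peaks. Lost peaks were thus not below kept estradiol peaks under 300 bp or from 500 to under 1000 bp, and their intervals overlapped. Kept vehicle peaks had 6.11% (5.15 to 7.18) under 300 bp and 6.61% (6.03 to 7.22) from 500 to under 1000 bp. The latter interval overlapped that of lost peaks.

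**Figure D1:**
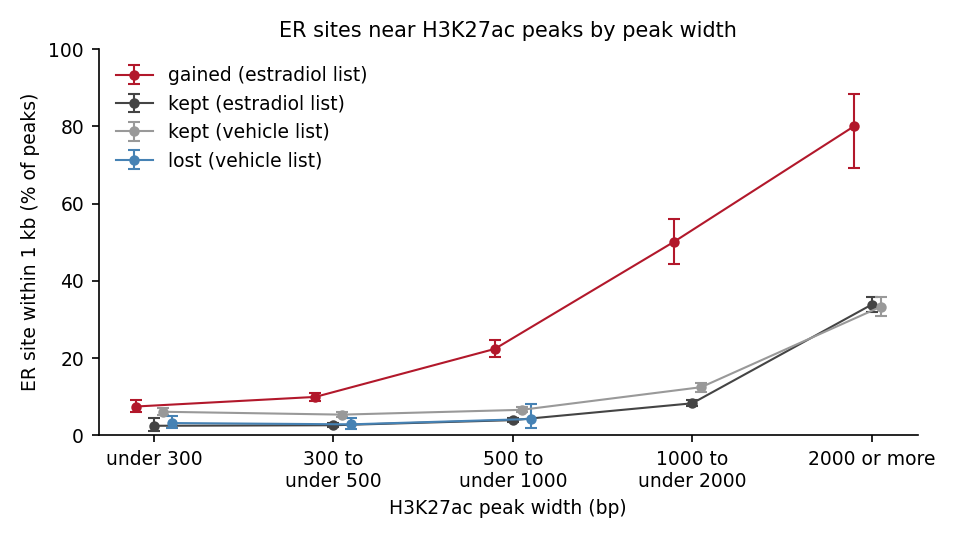
Share of H3K27ac peaks with an ER site within 1 kb (vertical axis, %) by peak width in bp (horizontal axis) for gained and kept peaks of the estradiol list and kept and lost peaks of the vehicle list; bars are 95% Clopper-Pearson intervals over peaks, and the 10 lost peaks of 1000 bp or more are not drawn. Gained peaks lie above kept estradiol peaks in each width class, from 7.47% against 2.48% under 300 bp to 80% against 33.9% at 2000 bp or more.

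Strong gained peaks had ER sites most often. The share with an ER site within 1 kb was 9.97% (7.84 to 12.4) at a −log10 p of 10 to 15, 11.5% (10.3 to 12.8) at 20 to 30, 20.8% (17.9 to 24.0) at 30 to 40 and 47.9% (42.7 to 53.1) at 40 to 80. At 80 or more it was 52 of 59 peaks (88.1%, 77.1 to 95.1). Kept estradiol peaks of the same strengths had 2.89%, 4.08%, 4.57%, 5.71% and 19.3%.

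The share of gained peaks fell with distance from ER sites. Of estradiol peaks between 1 bp and 1 kb from an ER site, 61.5% (58.3 to 64.5) were gained. It was 49.7% (46.9 to 52.4) at 1 to 5 kb, 37.4% (34.1 to 40.7) at 5 to 10 kb, 32.2% at 10 to 25 kb and 21.6% (20.9 to 22.3) beyond 100 kb. Peaks that overlapped an ER site broke the order, with 24.4% (22.3 to 26.7) gained. Their median width was 2166 bp, against 560 bp in the class up to 1 kb, and wide peaks were mostly kept. By distance from GR sites the gained share was 7.82% for overlapping peaks and between 26.9% and 31.8% in all 7 other classes. For lost peaks the share near ER sites was low, at 0.801% (0.367 to 1.51) of vehicle peaks that overlapped one and 5.18% (3.69 to 7.04) within 1 kb, and lay between 7.12% and 8.84% farther out. By distance from GR sites the lost share was 2.49% (1.40 to 4.07) for vehicle peaks that overlapped one, 12.6% (9.28 to 16.6) for the others within 1 kb and 6.14% (5.77 to 6.53) beyond 100 kb. The median distance to an ER site was 73.7 kb for gained peaks, 185 kb for kept estradiol peaks and 175 kb for lost peaks.

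**Figure D2:**
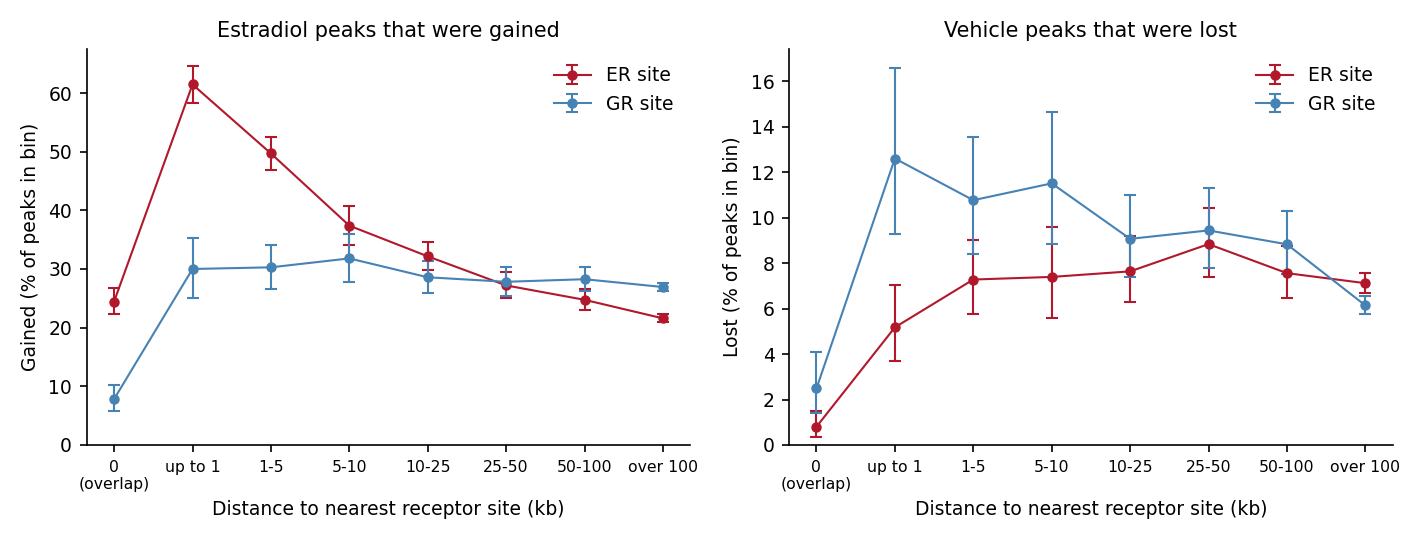
Share of estradiol peaks that were gained (left) and of vehicle peaks that were lost (right) in % of the peaks of each class, by distance in kb to the nearest ER site (estradiol, red) or GR site (dexamethasone, blue); bars are 95% Clopper-Pearson intervals over peaks, and the 2 vertical axes differ in scale. The gained share falls from 61.5% within 1 kb of an ER site to 21.6% beyond 100 kb, while by distance from GR sites it lies between 26.9% and 31.8% outside the overlapping class.

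Presence and strength of ER sites moved with the gained share. The shares with 1, 2 and 3 or more sites were close to each other. Of estradiol peaks with 0, 1, 2 and 3 or more ER sites within 10 kb, 23.3%, 41.1%, 42.0% and 44.0% were gained. The interval with 0 sites (22.7 to 23.9) stood apart from that with 1 (39.4 to 42.9), and the intervals with 1, 2 and 3 or more overlapped. Median peak widths rose over these classes, at 628, 751, 977 and 1141 bp, and wide peaks were mostly kept. The classes were not compared at like width, so the close shares cannot show that the number of sites had no bearing. Where the strongest ER site within 1 kb belonged to the top 25% of ER sites by −log10 q, 51.4% (48.0 to 54.8) of estradiol peaks were gained, against 37.8%, 30.9% and 27.3% (23.5 to 31.4) in each weaker 25%. The lost share ran the other way over the same classes, from 0.749% (0.204 to 1.91) beside the strongest sites to 5.08% (3.25 to 7.52) beside the weakest.

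Seen from the 3560 ER sites, 524 (14.7%, 13.6 to 15.9) lay under an H3K27ac peak with estradiol and under none with vehicle, and 31 (0.871%, 0.592 to 1.23) the reverse. Another 1279 (35.9%) lay under peaks of both lists and 1726 (48.5%) under neither. Sites acetylated with estradiol and not with vehicle made up 27.3% (24.4 to 30.4) of the strongest 25% of ER sites, against 12.7%, 8.88% and 10% (8.11 to 12.2) of each weaker 25%. The share under peaks of both lists varied less, between 33.3% and 39.8%. Of the strongest sites 32.6% (29.5 to 35.8) lay under no peak of either list, against 52.4% to 55.6% of the others.

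**Figure D3:**
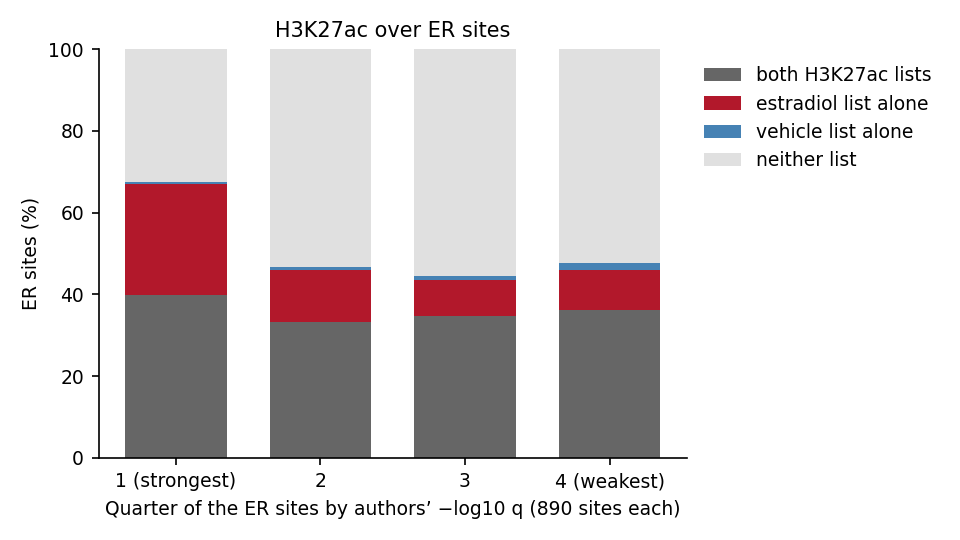
Share of ER sites (vertical axis, %) under H3K27ac peaks of both lists, of the estradiol list alone, of the vehicle list alone or of neither, in 4 classes of 890 ER sites by the authors' −log10 q (horizontal axis). The part covered with estradiol alone is 27.3% in the strongest class and 8.88% to 12.7% in the other classes.

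Some ER sites lay between or beside peaks with vehicle and under a peak with estradiol. With vehicle, 95 ER sites lay in a gap with an H3K27ac peak within 1 kb on both sides, and 52 of these (54.7%, 44.2 to 65.0) lay under a peak with estradiol. Of 223 sites with a vehicle peak on 1 side, 115 (51.6%, 44.8 to 58.3) lay under a peak with estradiol. Of 1932 sites with no vehicle peak within 1 kb, 357 (18.5%, 16.8 to 20.3) did, and 1309 had no estradiol peak within 1 kb either. Of 1310 sites under a vehicle peak 1279 (97.6%) stayed under one. Gaps and flanks of vehicle peaks without an ER site were not counted, so these shares have no level to be read against. Estradiol peaks covered more sequence and were mostly wider whether or not an ER site was near. H3K27ac summits mostly lay to the side of the ER summit. Between peaks with an ER site within 1 kb and that site the median summit distance was 428.5 bp for gained, 446.5 bp for kept estradiol and 421 bp for kept vehicle peaks, and 5.81%, 6.71% and 8.83% of summits lay within 150 bp.

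Kept peaks were mostly wider with estradiol, whether or not an ER site was near. In 14152 pairs 1 estradiol peak met 1 vehicle peak and neither met another, which took in 81.0% of kept estradiol and 72.0% of kept vehicle peaks. Pileup and width were correlated across these pairs (Spearman's rho 0.869 and 0.802, over peaks of 2 libraries). The estradiol peak was the wider in 82.2% of pairs, with a median log2 width ratio of 0.26 (0.25 to 0.27). In 8.61% it was at least 2 times as wide, and in 0.813% the vehicle peak was.

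Pairs with an ER site within 1 kb of the vehicle peak differed from the others in the tail more than at the median. Among 936 such pairs the median log2 width ratio was 0.30 (0.26 to 0.33), and among 13216 pairs without one it was 0.26 (0.25 to 0.26). A peak at least 2 times as wide with estradiol was found in 19.4% of pairs with an ER site and 7.84% without. Ranks of pileup were taken as percentiles among the 14152 pairs in each list, since the pileups were scaled differently. The median shift was 1.41 points (0.957 to 2.01) with an ER site and −0.187 (−0.318 to −0.0389) without. A rise of more than 25 points was found in 4.48% of all pairs, in 15% with an ER site and in 3.74% without. A fall of more than 25 points was found in 4.97% of all pairs, in 3.31% with an ER site and in 5.08% without. Rises and falls of more than 10 points each made up 19.9% of all pairs. With an ER site they were 28.8% and 12.1%. The order of the medians was not stable. With percentiles taken in each whole list the median rank shift was 3.84 with an ER site and 4.51 without, and counting only ER summits inside the vehicle peak the median log2 width ratio was 0.21 with an ER site and 0.26 without.

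The strength of the ER site separated the pairs further. Beside the strongest 25% of ER sites (233 pairs) the median log2 width ratio was 0.58 (0.43 to 0.72), the median rank shift was 5.17 points (2.50 to 9.40), and 27% of pairs rose by more than 25 points. Beside the weakest 25% (249 pairs) these values were 0.18 (0.12 to 0.25), 0.120 points (−0.265 to 1.14) and 10.4%. Their median width ratio was thus below the 0.26 of pairs without an ER site, while rises of more than 25 points (10.4% against 3.74%) and peaks at least 2 times as wide (13.3% against 7.84%) were more frequent. The 343 pairs with a GR site and no ER site within 1 kb had a median log2 width ratio of 0.09 (0.05 to 0.12) and a median rank shift of −2.72 points (−4.57 to −1.44). Vehicle peaks beside the weakest ER sites and in these 343 pairs had median widths of 835 and 950 bp, against 544 bp without an ER site. Their median vehicle pileup percentiles were 63.9 and 56.9, against 48.9. Width ratios were lower at stronger vehicle peaks, and these groups were not compared at like strength.

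**Figure D4:**
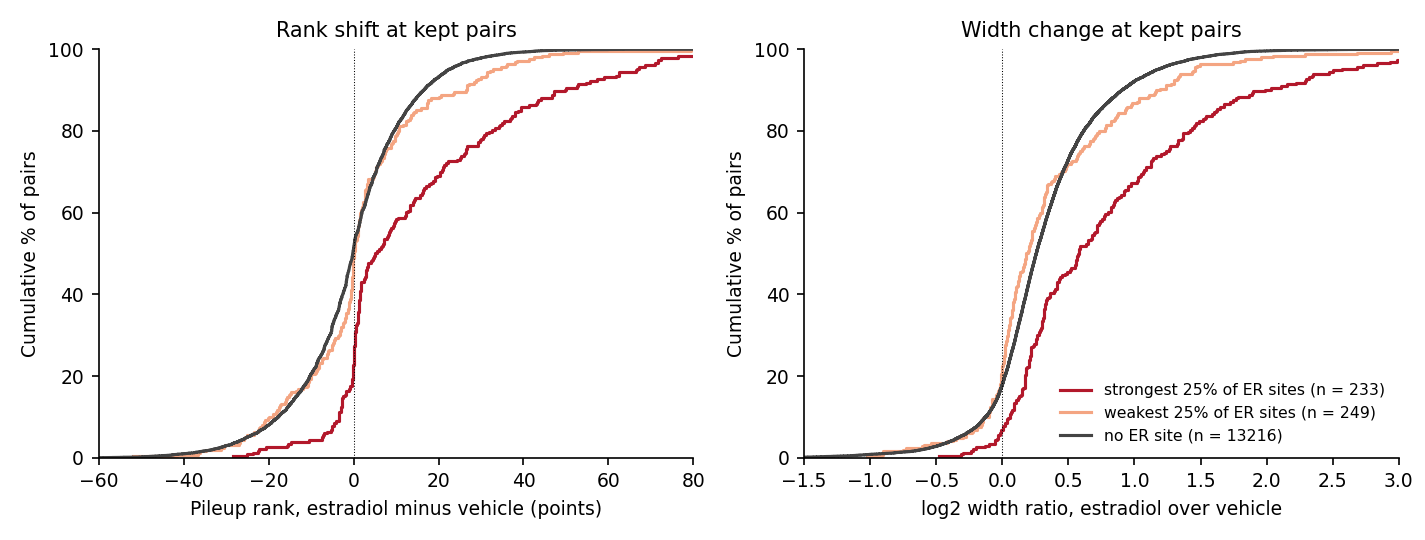
Cumulative share of pairs (vertical axes, %) by pileup-rank shift in percentile points (left) and by log2 width ratio, estradiol over vehicle (right), for pairs beside the strongest 25% of ER sites (n = 233), beside the weakest 25% (n = 249) and with no ER site within 1 kb (n = 13216); the horizontal axes leave out the extreme values. The curve of the strongest ER sites lies to the right of the others, with medians of 5.17 points and 0.58, and that of the weakest sites has medians of 0.120 points and 0.18 against −0.187 points and 0.26 without ER, but a longer upper tail.

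The difference between pairs with and without an ER site was smallest at the strongest vehicle peaks. In the 25% of pairs with the lowest vehicle pileup, the median log2 width ratio was 0.84 (0.70 to 0.98) with an ER site (214 pairs) and 0.40 (0.38 to 0.42) without (3324 pairs). The median rank shift there was 12.9 points (9.01 to 18.9) with an ER site and 3.75 (3.21 to 4.04) without. A class of low vehicle ranks has more room to rise than to fall, so the values are read against each other and not against 0. In the next 25% the median rank shifts were 7.73 (1.59 to 14.1) and −0.223 (−1.55 to 0.0424) points, and in the 25% after that 3.31 (1.41 to 6.77) and −2.16 (−2.77 to −1.65). The median log2 width ratios in these classes were 0.60 against 0.32 and 0.38 against 0.24. In the 25% with the highest vehicle pileup the median log2 width ratio was 0.16 both with and without an ER site, and the median rank shifts were 0.110 and −1.13 points. Ranks in this class have little room to rise, with median vehicle percentiles of 93.4 with an ER site and 86.8 without. That ceiling bounds the rank shifts and not the width ratios. Among the 60 pairs that rose by 50 points or more, 34 (56.7%, 43.2 to 69.4) had an ER site, and among the 102 with a log2 width ratio of 2 or more, 47 did (46.1%, 36.2 to 56.2).

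Some estradiol peaks spanned several vehicle peaks. There were 2362 such peaks (9.89% of the estradiol list), over 5143 vehicle peaks and up to 8 at once, and 554 vehicle peaks (2.62%) spanned several estradiol peaks. An ER site lay within 1 kb of 19.6% (18.0 to 21.2) of the spanning estradiol peaks and of 6.91% (6.51 to 7.33) of those that met 1 vehicle peak, but the former were wider, with medians of 1769.5 and 726 bp. The order differed between width classes. From 1000 to under 2000 bp, spanning peaks had an ER site less often, at 6.31% (4.95 to 7.91) against 8.94% (8.00 to 9.95), and at 4000 bp or more the values were 60.6% (55.3 to 65.8) and 53.6% (47.4 to 59.7), with overlapping intervals. Between 2000 and 4000 bp of width, the spanning peaks had one at 25.5% (22.2 to 29.1) and the others at 24.4% (21.7 to 27.2), and these intervals overlapped.

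All of the 10 gained peaks with the highest −log10 q carried an ER site. The first, chr2:233237998-233242603, was 4606 bp wide with a pileup of 233 and a fold enrichment of 50.9, and the nearest vehicle peak was 172 kb away. Its ER site, chr2:233239901-233240133, had a fold enrichment of 20.9. The next, chr15:39956314-39963017, was 6704 bp wide with a fold enrichment of 42.3 and held an ER site at chr15:39960696-39960988 with a fold enrichment of 54.9. The others were chr2:238466203-238469229, chr16:9140550-9142672, chr11:69948532-69953591, chr17:27403713-27407427, chr10:125254777-125258601, chr1:12657366-12662069, chr13:114629832-114633260 and chr10:62605967-62610038. The peak on chromosome 11 held 3 ER sites, the largest number among the 10. The 10 peaks were 2123 to 6704 bp wide, with fold enrichments of 21.9 to 57.9 and ranks of 110 to 986 in the estradiol list. Of the 10, 0 lay within 1 kb of a vehicle peak or of a dexamethasone GR site, all 10 overlapped H3K27ac of the combination, and 1, the peak on chromosome 15, overlapped H3K27ac of dexamethasone alone. Kept estradiol peaks with a −log10 p of 80 or more overlapped these 2 lists at 99.8% and 78.8%. For the 59 gained peaks of that strength the shares were 100% and 11.9%, so overlap with the combination was not particular to the 10.

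The 10 lost peaks with the highest −log10 q were smaller and lay beside peaks of the estradiol list. They were 453 to 1184 bp wide, had fold enrichments of 8.35 to 14.8 and ranks of 5289 to 8190 in the vehicle list, and 8 of them lay within 1 kb of an estradiol peak. The first was chr9:74871276-74871956, with a pileup of 75.7 and a fold enrichment of 11, and an estradiol peak lay 0.137 kb away. An ER site lay within 1 kb of 1 of the 10, chr2:130476350-130476977, which also had a GR site. All 10 overlapped H3K27ac of the combination, and 9 overlapped that of dexamethasone. Kept vehicle peaks with a −log10 p of 40 to 80, a class that held 9 lost peaks, overlapped the combination at 95.6% and dexamethasone at 56.6%. Overlap with the combination was thus not particular to the 10.

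Among pairs, the largest rise of pileup rank was at chr11:3027634-3034114, with 6481 bp and a pileup of 193 (percentile 98.3 among the pairs) with estradiol. The vehicle peak inside it, chr11:3027929-3028296, had 368 bp and a pileup of 27.2 (percentile 6.38). Its nearest ER site was 3.79 kb from the vehicle peak and lay on the estradiol peak. The other 4 large rises were at chr19:623483-625469, chr6:158459722-158462019, chr2:208640283-208643794 and chr10:90234460-90235662, and 3 of these, all but the region on chromosome 2, had an ER site within 1 kb. The largest width ratio was at chr12:281505-293038, where 11534 bp with estradiol faced 244 bp with vehicle and 5 ER sites lay on the estradiol peak. The next in width were the same region on chromosome 11, chr1:12676941-12680525, chr12:132282771-132286992 and chr2:100251782-100258626. The region on chromosome 1 had no ER site on the estradiol peak, and the nearest was 4.04 kb from its vehicle peak. The others had ER sites on the estradiol peak.

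The largest falls of rank had no ER site within 1 kb. Few pairs had one at all, 936 of 14152, and of the 703 pairs that fell by more than 25 points 4.41% (3.02 to 6.20) did. Absence of an ER site was thus not particular to these regions. At chr4:18691161-18691961 the pileup was 30 with estradiol (percentile 8.77) and 71.1 with vehicle (percentile 77.3), while the widths were 801 and 798 bp. The other 4 were chr5:124082798-124083210, chr4:18736438-18737221, chr11:128000423-128000695 and chr12:109794522-109795125, and all 5 regions overlapped H3K27ac of dexamethasone and of the combination. Among all kept estradiol peaks 48.5% overlapped the former and 80.9% the latter. The smallest width ratios, at chrX:67644375-67644662, chr5:17887764-17888086, chr12:30162639-30163048, chr7:21147744-21148016 and chr11:122143329-122143750, were also without an ER site within 1 kb, as were most pairs. At the first of these the widths were 288 bp with estradiol and 1334 bp with vehicle.

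The combination library also received estradiol and took no part in choosing the classes. Over the whole estradiol list 69.3% of peaks overlapped a combination peak and 39% a dexamethasone peak. Of gained peaks 2409 (37.5%, 36.3 to 38.7) overlapped a combination peak and 846 (13.2%, 12.4 to 14.0) a dexamethasone peak. Kept estradiol peaks, which were wider and stronger, did so at 80.9% and 48.5%. At like width the combination shares of gained and kept estradiol peaks were nearer to each other. They were 53.2% and 81.8% from 500 to under 1000 bp, and 89.0% and 96.8% from 1000 to under 2000 bp. The dexamethasone shares in these width classes were 15.2% and 35.8%, and 20.6% and 64.2%. Lost peaks overlapped a combination peak at 36.8% (34.3 to 39.3) and a dexamethasone peak at 42.3% (39.8 to 44.9). Of all vehicle peaks 77.5% met a combination peak and 46.7% a dexamethasone peak, but lost peaks were narrower and weaker than these. Below 1000 bp, lost peaks met dexamethasone peaks more often than kept vehicle peaks of like width. Under 300 bp 32.5% (28.7 to 36.4) of lost and 19.9% (18.2 to 21.6) of kept vehicle peaks did so. From 500 to under 1000 bp it was 70.4% (63.3 to 76.8) against 47.6% (46.4 to 48.8). Lost peaks met combination peaks less often, with 29.1% against 46.6% in the former class and 56.6% against 91.3% in the latter. The dexamethasone list was shorter, with 15192 peaks against 20873 in the combination list, so the 2 shares of a class are not directly comparable.

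Gained peaks with an ER site were in the combination list at 67.4% (64.4 to 70.4), and those without at 32.3% (31.0 to 33.5). The dexamethasone list held 11.5% (9.57 to 13.7) of the former and 13.5% (12.6 to 14.4) of the latter, and these intervals overlapped. Peaks with an ER site were stronger, with a median −log10 p of 25.3 against 21.0. At like strength the difference was not resolved at a −log10 p of 10 to 15, with 34.8% (23.7 to 47.2) and 28.6% (25.1 to 32.3). At 20 to 30 the shares were 60.7% (54.9 to 66.3) and 30.1% (28.2 to 32.0), and at 40 to 80 they were 96.7% (92.9 to 98.8) and 69.5% (62.6 to 75.9). At 80 or more, all 52 gained peaks with an ER site and all 7 without one were in the combination list. Where the ER site near a gained peak was itself called with the combination, 71.8% (68.5 to 75.1) of 746 gained peaks were in the combination list, and where it was not, 52.3% (45.4 to 59.1) of 218 were. The former peaks were also stronger and wider, with a median −log10 p of 27.4 against 21.3 and a median width of 612 against 436 bp, and the shares were not compared at like strength.

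**Figure D5:**
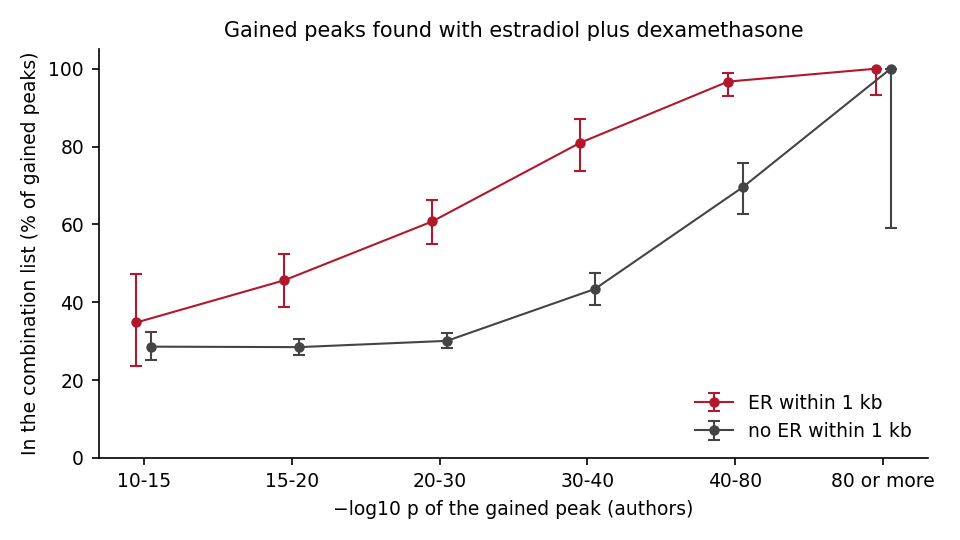
Share of gained peaks that overlap an H3K27ac peak of the combination (vertical axis, %) by the authors' −log10 p of the gained peak (horizontal axis), with and without an ER site within 1 kb; bars are 95% Clopper-Pearson intervals over peaks. From a −log10 p of 15 to 80 the peaks with an ER site lie above the others, for example 60.7% against 30.1% at 20 to 30.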

How the data were processed

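Chromatin immunoprecipitation libraries of Ishikawa cells were processed with Bowtie 1.1.2, MACS2 2.1.0.20140616 and the hg19 build, which the submitters' processing notes name. Narrow peaks were called, per the file headers, against a control at a p cutoff of 1e-10, with at most 1 tag per position and the larger library scaled down. Pileup, as deposited, is a signal: fragment coverage at a peak's summit after that scaling. For p-values and q-values the authors gave −log10. Fold enrichment, also as deposited, is a ratio of pileup to local control. The label of the control names both input and IgG, so its kind is uncertain. The treatment label gives 8 h for H3K27ac and a protocol text gives 1 h, and the label was followed.

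Peaks sharing at least 1 bp were matched with numpy 2.4.6, pandas 2.3.3 and scipy 1.17.1 in Python 3.11.15. Kept counts equalled those of bedtools 2.31.1, and the code was tested on simulated data. Shares carry exact Clopper-Pearson 95% intervals, ratios of shares an interval on the log scale, and medians an interval from order statistics. Neighbouring peaks are not independent. No p-value was computed. Pileups were compared as ranks over the same pairs, with ranks in each whole list as an alternative setting. Raw pileups are given for named regions and are scaled differently in the 2 lists. Regions named by coordinates are the 10 gained and 10 lost peaks with the highest −log10 q and the 5 pairs at each end of rank shift and width ratio. The classes, lists and tests were chosen with earlier results of these data known. Sequences and gene names were not used here.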

Additional observations from a re-analysis of the deposited data

How the results depend on the processing

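Of 69 recomputed values in 13 settings, 33 moved by less than their counting error, or by less than 1.5 times for a count, 35 moved by more and 1 changed sign. No paired analysis was possible because each group holds 1 library. The setting with peaks at a −log10 p of at least 20 against the other list as deposited was chosen after seeing the data. It gave 3734 gained and 549 lost peaks and an ER share of gained peaks of 18.2%. Counting peaks within 1 kb as overlapping left 745 lost peaks. The ER share of gained peaks was then 18.7%, that of lost peaks 2.28% and their ratio 8.18, and 47.6% of gained peaks were in the combination list. With lists of equal length the ER share of gained peaks was 17.1%. With both lists at a −log10 p of at least 20 the ER share of kept estradiol peaks was 9.10%, the median log2 width ratio without an ER site 0.25 and the share of gained peaks in the combination list 47.2%. With overlap of at least 50% of the shorter peak that last share was 35.6%.

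With the ER summit inside the peak, the ER shares were 3.33% (gained), 5.87% (kept estradiol) and 0.273% (lost), so gained no longer exceeded kept, and the ratio of gained to lost was 12.2. The median log2 width ratio with an ER site was then 0.21, below the 0.26 without, and the median rank shift 0.417. With ER sites within 10 kb the shares were 30.1%, 15.5% and 11.9%, with a ratio of 2.53. Within 1 kb of the H3K27ac summit the gained and kept shares were 14.0% and 7.68%. With the stronger 50% of ER sites the shares were 10.5%, 4.55% and 0.957%, with a ratio of 10.9. With the combination's ER list they were 12.0%, 5.90% and 1.71%, with a ratio of 7.03. With percentiles taken in each whole list the median rank shift was 3.84 with an ER site and 4.51 without, so the sign without ER and the order both turned. By fold enrichment in place of pileup the shift with an ER site was 2.80. The ER share of gained peaks exceeded that of lost peaks in all of these settings.

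Many changed calls were weak: 41.8% of gained and 62.5% of lost peaks had a −log10 p under 20. The part of depth was not tested, and 1 library a side gives no measure of how often such a peak would be called again.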

Other observations

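Most gained peaks stood alone, and among runs of neighbouring gained peaks the longer ones had ER sites more often, as longer stretches can. Whether gained peaks cluster more than kept peaks was not tested. Joining gained peaks with gaps of at most 10 kb gave 3722 single peaks, of which 7.47% (6.64 to 8.36) had an ER site within 1 kb, and 730 runs of 2, of which 27.7% (24.5 to 31.1) did. Of 240 runs of 3 to 4 peaks 53.3% (46.8 to 59.8) did, and of 70 runs of 5 or more 78.6% (67.1 to 87.5). The following runs were chosen after their values were seen. The run at chr12:125218736-125251691 had 11 gained peaks and 3 ER sites, among 5 vehicle peaks. At chr16:21513234-21535282 there were 11 gained peaks and 1 ER site. The runs at chr16:16082303-16107082 (10 gained peaks) and chr17:27403713-27441169 (9) held 4 ER sites each and no vehicle peak, and neither held a dexamethasone H3K27ac peak.

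By chromosome, the gained share of estradiol peaks ran from 23.3% (19.6 to 27.3) on chromosome 18 to 34.9% (29.5 to 40.5) on chromosome 21. The lost share of vehicle peaks ran from 3.59% (2.14 to 5.62) on chromosome 20 to 10.6% (7.93 to 13.7) on chromosome 18. The share of gained peaks with an ER site within 1 kb was 8.61% on chromosome 19 and 6.29% on the X chromosome, the lowest values, and 20.2% on chromosome 10, the highest.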
